A study of Mus musculus with 30 samples.

Results

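The 41 genes described here take fatty acids into the cell and burn them, together with *Ppara* (peroxisome proliferator-activated receptor alpha, PPAR-alpha), a receptor that switches many of them on, and known targets of that receptor. They were chosen by symbol, with earlier results of these data known. All 41 were found among the 54838 genes of the kidney table and the 55487 genes of the gastrocnemius table. RNA-seq had been run on kidney and gastrocnemius (a calf muscle) of wild-type male C57BL/6J mice in 3 groups, with 5 libraries per group and tissue and 30 libraries in all. Every mouse was housed at thermoneutrality (30 to 32 °C) from 6 weeks of age. CD mice ate a chow diet and received water, WD mice ate a western diet from week 7 and received water, and WD+CHP mice ate the western diet and received cyclo(His-Pro) (CHP), a cyclic dipeptide, at 20 mg/kg by gavage on 3 days of each week, also from week 7. Tissues were taken in week 24, when the mice had been without food for 3 h. Thermoneutral housing was shared by the controls, so no comparison here concerns temperature. The sources do not say which kidney and muscle came from the same mouse. The study lists fewer mice for this experiment than there are libraries here, so some mice gave both tissues. Tests between tissues treated all libraries as independent, and p-values measure the spread between these libraries.

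Fatty acids are released from circulating triglyceride by lipoprotein lipase (*Lpl*), enter the cell with the help of CD36 and fatty acid transport proteins, are activated to acyl-CoA and cross the inner mitochondrial membrane through the carnitine shuttle. There, acyl-CoA dehydrogenases, the trifunctional protein and thiolases shorten them step by step, and electrons leave through the electron transfer flavoproteins. Peroxisomes and microsomal omega-hydroxylases handle very long and dicarboxylic chains. PPAR-alpha senses fatty acids and raises transcription of many of these genes, above all during fasting, and *Pdk4* turns the mitochondrion from glucose towards fat. Proximal tubule cells of the kidney and oxidative muscle fibres both depend on this pathway.

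Kidney libraries held 37189192 to 38211422 counts and gastrocnemius libraries 50319024 to 53282969, and the 41 genes took 0.924% to 1.26% of the counts in kidney and 0.504% to 0.795% in muscle. The labels of all 30 libraries name frozen liver as the starting material, so the tissues were checked against markers. All 15 proximal tubule markers passed the filter on low counts in kidney and 1 of 15 in gastrocnemius, whereas all 12 fast fibre markers passed in gastrocnemius and 5 of 12 in kidney. In gastrocnemius, 3 libraries stood apart. The summed hepatocyte markers were 68.6 CPM (counts scaled to library size) in CD replicate 1, 15.5 CPM in WD replicate 2 and 71.8 CPM in WD replicate 3, and at most 5.43 CPM in the other 12. Muscle calls of members that were lost without these libraries are given with and without them. In kidney the same markers summed to 1324 CPM in WD replicate 5, 588 to 673 CPM in the other WD libraries, 450 to 687 CPM on CD and 627 to 736 CPM on WD+CHP. In bulk tissue, fewer cells of a type and less RNA per cell cannot be told apart.

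On WD, most of the members that changed were lower in kidney and higher in gastrocnemius. In kidney, 13 of the 40 members tested passed an adjusted p of 0.05 in WD vs. CD (edgeR's quasi-likelihood test, adjusted over all genes), 10 of them lower and 3 higher, against 9.65% of all genes called in either direction (5.03% lower, 4.62% higher). In gastrocnemius, 26 of 38 passed, 24 higher and 2 lower, against 8.63% of all genes (4.67% higher, 3.96% lower). The median log2 fold change of the members tested was -0.071 in kidney and 0.42 in gastrocnemius, beside medians over all genes of 0.0015 and 0.0013. *Ucp3* was too low to be tested in kidney, as were *Slc27a2*, *Cyp4a10* and *Cyp4a14* in gastrocnemius. The 5 WD libraries lay wholly above the 5 CD libraries for 19 members in gastrocnemius and wholly below them for 2, where 4.09% and 3.76% of all genes did so. In kidney the groups lay wholly apart for 3 members upwards and 10 downwards, against 4.02% and 4.67% of all genes. The 15 proximal tubule markers summed to 37738 to 41499 CPM in CD kidney, 34636 to 38082 CPM in WD kidney and 37519 to 42383 CPM in WD+CHP kidney, with 3 higher, 2 lower and none at 0 in WD vs. CD. Their part in the kidney result was not tested. Of the 9 hepatocyte markers tested in kidney, 2 were called higher and 1 lower in WD vs. CD. Their estimates were above 0 for 8 (median 0.87), and 5 had an unadjusted p under 0.05. Of 8 macrophage estimates, 6 were above 0 (median 0.18), with 0 called and 4 at an unadjusted p under 0.05. The part of hepatocyte and macrophage RNA was not tested. Without WD replicate 5, 3 members were called higher and 10 lower, as with it.

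**Figure D1:**
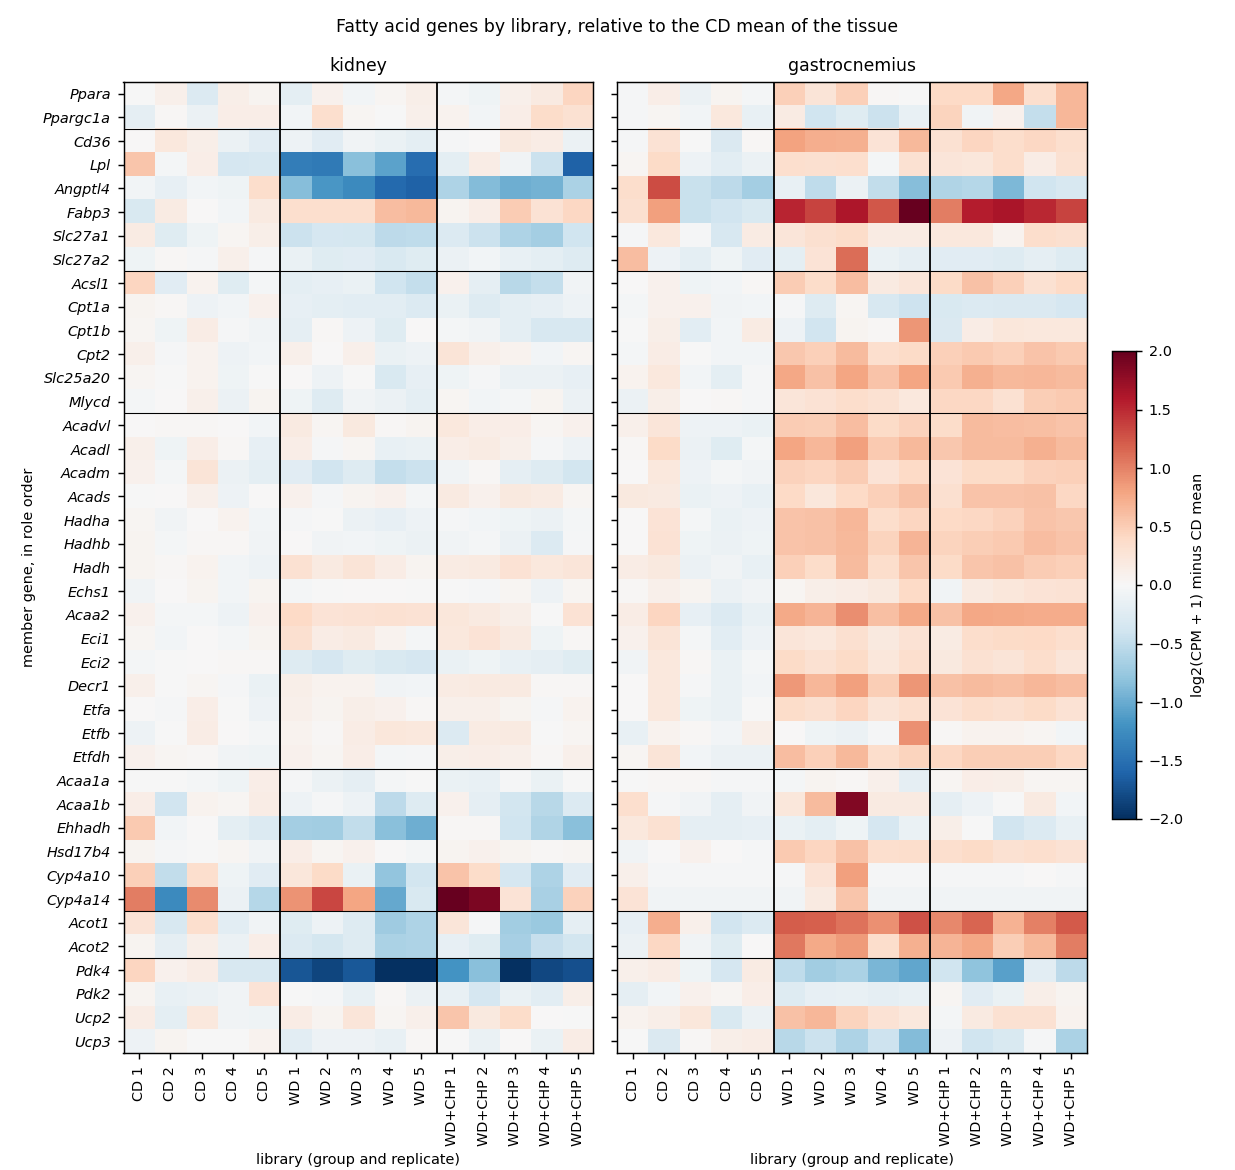
Heat map of the 41 members (rows, in role order) in each of the 30 libraries (columns, by group and replicate), coloured by log2(CPM + 1) minus the mean of the 5 CD libraries of the same tissue, with colours capped at 2. In gastrocnemius the WD and WD+CHP libraries are red for most members from *Cd36* to *Acot2*, while in kidney the WD libraries are deepest blue at *Pdk4*, *Lpl* and *Angptl4*.

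**Figure D2:**
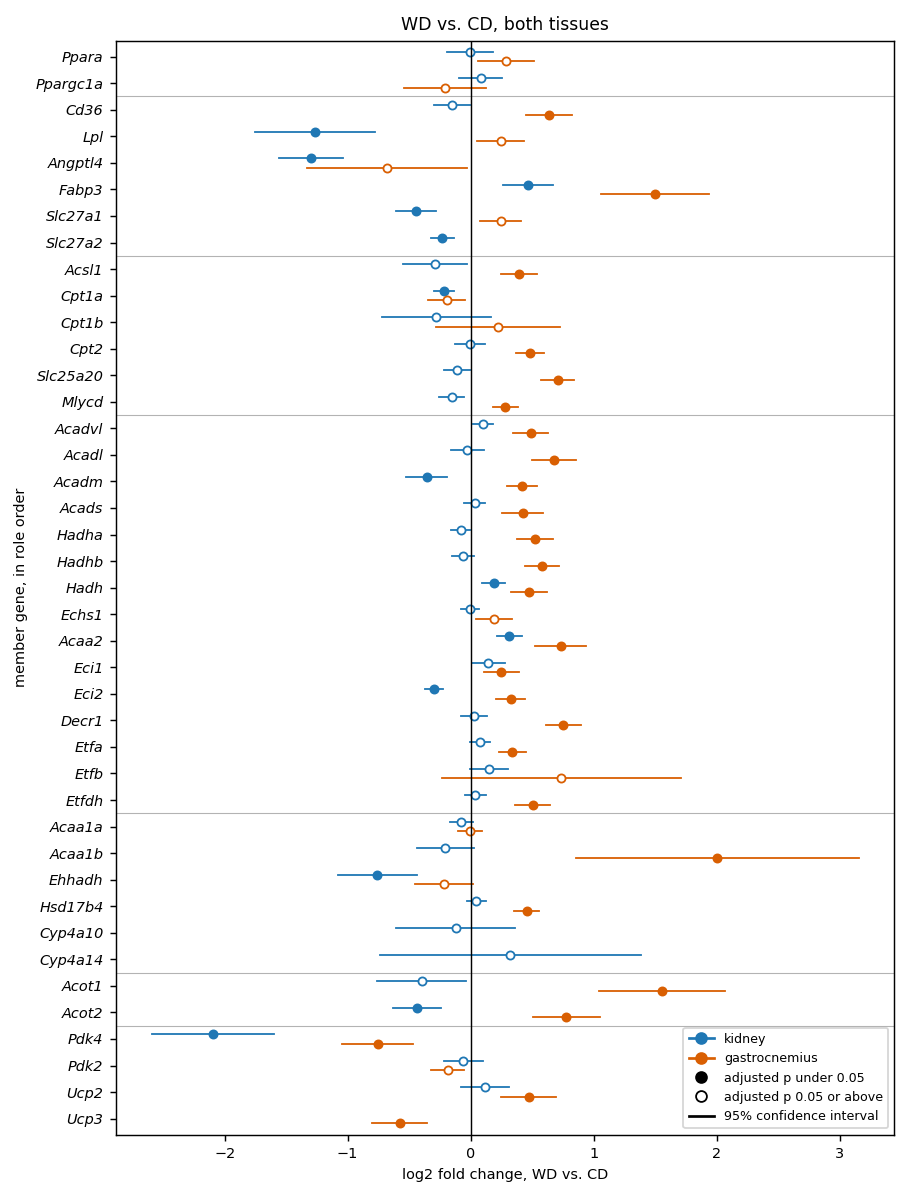
Log2 fold change of each member in WD vs. CD (horizontal axis) with its 95% confidence interval, kidney in blue and gastrocnemius in orange, filled where the adjusted p was under 0.05. Of the tested members, 13 are filled in kidney and 26 in gastrocnemius, and *Pdk4* is filled below 0 in both.

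Promoters of the members were searched for letters that PPAR-alpha and related receptors are known to bind, because many members are known targets of that receptor. RefSeq promoter windows of 300 bases (250 before to 50 after the start of transcription, GRCm38.p6) were matched for 33 of the 41 members. The chromosome that carries *Acaa2* and *Hsd17b4* was left out before matching, so these members were not searched. The shares of other genes below leave out that chromosome too. The full PPAR element was searched on both strands as AGGNCA followed by 1 base of any kind and AGGNCA again. It was in 0 of these 33 and in 0.451% of the 27025 genes with a window in the set searched. The element of the oestrogen-related receptors, TNAAGGTCA, was in 0 of 33 and in 1.43% of the genes in that set. The half-site AGGTCA, which is part of the second element, was in 7 of 33 (*Acadm*, *Acadvl*, *Cd36*, *Cpt1a*, *Echs1*, *Slc27a2* and *Ucp3*), or 21.2%. It was in 18.1% of the genes in that set. These counts describe letters in short windows and say nothing about binding. The windows of 4 members are shown because their responses to WD differed in kind: *Cd36* (chr5:17835847-17836146, - strand), called higher in muscle and not called in kidney, *Acadm* (chr3:153944594-153944893, - strand), higher in muscle and lower in kidney, *Ucp3* (chr7:100472741-100473040, + strand), lower in muscle, and *Pdk4* (chr6:5496229-5496528, - strand), lower in both tissues. Capitals mark the half-site as read on the printed strand, TGACCT where it lies on the other one, and the *Pdk4* window has no match.
Cd36: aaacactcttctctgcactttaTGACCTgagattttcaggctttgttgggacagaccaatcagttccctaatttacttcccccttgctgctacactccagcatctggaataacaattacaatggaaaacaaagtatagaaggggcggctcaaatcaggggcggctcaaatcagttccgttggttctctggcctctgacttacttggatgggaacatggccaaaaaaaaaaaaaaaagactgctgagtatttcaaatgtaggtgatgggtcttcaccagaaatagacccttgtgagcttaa
Acadm: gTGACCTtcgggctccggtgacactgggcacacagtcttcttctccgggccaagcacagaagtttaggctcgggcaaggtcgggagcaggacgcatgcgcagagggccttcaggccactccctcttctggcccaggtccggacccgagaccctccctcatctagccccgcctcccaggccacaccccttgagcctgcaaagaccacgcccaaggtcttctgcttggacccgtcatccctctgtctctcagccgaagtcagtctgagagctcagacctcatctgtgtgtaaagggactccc
Ucp3: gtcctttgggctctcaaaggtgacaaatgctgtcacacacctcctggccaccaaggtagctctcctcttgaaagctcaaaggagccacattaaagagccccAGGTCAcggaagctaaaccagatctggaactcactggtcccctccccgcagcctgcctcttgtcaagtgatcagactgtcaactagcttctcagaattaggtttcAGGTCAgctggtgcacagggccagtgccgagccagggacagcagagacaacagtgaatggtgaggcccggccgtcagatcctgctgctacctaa
Pdk4: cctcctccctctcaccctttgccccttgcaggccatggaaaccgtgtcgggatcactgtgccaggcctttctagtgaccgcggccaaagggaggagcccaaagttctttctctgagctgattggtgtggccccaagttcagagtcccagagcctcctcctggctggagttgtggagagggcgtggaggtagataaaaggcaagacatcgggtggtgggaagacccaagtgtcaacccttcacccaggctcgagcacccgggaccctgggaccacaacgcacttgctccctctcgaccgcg

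Neither regulator passed the test in WD vs. CD in either tissue. *Ppara* (chr15:85734983-85802819 in GRCm38, as are the gene positions below) lay at 64.0, 69.3, 53.4, 70.5 and 67.4 CPM in the 5 CD kidneys and at 56.0, 68.5, 62.5, 66.1 and 70.5 CPM in the 5 WD kidneys, which overlap throughout (log2 fold change -0.0041 ± 0.095, adjusted p = 0.986; errors are SE here and below). In gastrocnemius it was lower, at 8.09, 9.10, 7.52, 8.57 and 8.01 CPM on CD, 11.8, 10.0, 11.9, 8.36 and 8.21 on WD and 11.2, 11.2, 14.7, 10.6 and 13.6 on WD+CHP. All 5 WD+CHP muscles lay above all 5 CD muscles. WD+CHP vs. CD passed (log2 fold change 0.57 ± 0.12, adjusted p = 0.00587), whereas WD vs. CD (log2 fold change 0.29 ± 0.12, adjusted p = 0.140) and WD+CHP vs. WD (log2 fold change 0.29 ± 0.11, adjusted p = 0.310) did not. *Ppargc1a*, a coactivator of PPAR-alpha and of mitochondrial biogenesis, was at 85.1, 98.2, 88.7, 106 and 106 CPM in CD kidney and 92.6, 122, 99.2, 95.6 and 103 CPM in WD kidney, with overlapping groups (log2 fold change 0.083 ± 0.089, adjusted p = 0.613). Its gastrocnemius values were 33.3, 34.8, 32.5, 39.2 and 30.4 CPM on CD, 38.0, 25.5, 28.6, 24.8 and 30.5 on WD and 46.4, 32.2, 36.0, 24.2 and 54.3 on WD+CHP, where the last group covered the range of the other two (log2 fold change 0.39 ± 0.17, adjusted p = 0.352 in WD+CHP vs. WD).

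Of the lipid uptake genes, 4 of 6 fell and 1 rose in WD kidney, and 2 of 5 tested rose in WD muscle. *Lpl* (chr8:68880491-68907448), which frees fatty acids from lipoproteins, was at 1093, 727, 819, 593 and 594 CPM in CD kidney and at 286, 279, 416, 353 and 259 CPM in WD kidney. Every WD kidney lay below every CD kidney (log2 fold change -1.27 ± 0.25, adjusted p = 0.00506). In gastrocnemius *Lpl* was at 498, 627, 452, 418 and 442 CPM on CD and 612, 602, 607, 469 and 596 CPM on WD, and the difference did not pass (log2 fold change 0.24 ± 0.097, adjusted p = 0.132). The test of the difference between the tissues' responses did (1.51 ± 0.29, adjusted p = 0.00163, log2 gastrocnemius minus kidney). *Angptl4* (chr17:33773750-33781830), a secreted inhibitor of lipoprotein lipase and a PPAR target, was at 102, 94.3, 101, 98.7 and 135 CPM in CD kidney and 57.6, 46.3, 43.0, 35.2 and 33.6 CPM in WD kidney. These groups did not overlap either (log2 fold change -1.30 ± 0.13, adjusted p = 3.94e-05). In muscle the CD libraries alone spread widely, at 12.4, 25.0, 6.76, 6.33 and 5.61 CPM, against 8.54, 6.42, 8.70, 6.48 and 4.84 CPM on WD (log2 fold change -0.68 ± 0.33, adjusted p = 0.222). The enzyme and its inhibitor were both lower in WD kidney, and neither passed in muscle. Adipocytes express both genes. The 10 adipocyte markers summed to 30.2 to 59.5 CPM in CD kidney, 32.5 to 44.7 CPM in WD kidney and 33.4 to 41.8 CPM in WD+CHP kidney, with *Lep* at 0 in every CD kidney. Of 7 tested, 5 were below 0 in WD vs. CD, with a median of -0.22 and 1 called lower, *Cfd* (log2 fold change -2.47 ± 0.68, adjusted p = 0.0311), and 5 were above 0 in WD+CHP vs. WD, with a median of 0.13, where edgeR's test called 0 and 0 had an unadjusted p under 0.05. The 5 brown adipocyte markers summed to at most 4.75 CPM in CD, 4.08 CPM in WD and 8.25 CPM in WD+CHP kidney. The 2 tested were below 0 in WD vs. CD (median -0.57) and above 0 in WD+CHP vs. WD (median 0.92). In each comparison edgeR's test called 0 of them, and 0 had an unadjusted p under 0.05. The part of adipocytes in the kidney values was not tested.

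*Cd36* (chr5:17781690-17888801), the membrane fatty acid translocase, showed the reverse. It was at 214, 266, 216, 179 and 221 CPM in CD muscle and at 382, 360.2, 355, 263 and 343 CPM in WD muscle, where WD replicate 4 fell just short of the highest CD library (log2 fold change 0.64 ± 0.097, adjusted p = 0.000751). In kidney it was at 399, 461, 431, 366 and 339.6 CPM on CD and 371, 339, 378, 360.3 and 348 CPM on WD (log2 fold change -0.15 ± 0.075, adjusted p = 0.220), and the responses differed between tissues (0.79 ± 0.13, adjusted p = 0.000303). *Fabp3*, the heart and muscle fatty acid binding protein, rose in both tissues. Its gastrocnemius values were 221, 314, 131, 136 and 143 CPM on CD and 515, 455, 546, 423 and 734 CPM on WD, with no overlap (log2 fold change 1.50 ± 0.22, adjusted p = 0.000611). Its kidney values were 20.6, 29.1, 26.0, 24.7 and 29.3 CPM on CD and 32.9, 32.6, 32.8, 40.0 and 40.9 CPM on WD, again apart (log2 fold change 0.47 ± 0.11, adjusted p = 0.0103), and the rise in muscle was the larger (1.03 ± 0.26, adjusted p = 0.0228). Of the 50-base words of *Fabp3* transcripts, 29.2% also occur in the pseudogene *Fabp3-ps1*, so some of its reads could have been split.

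The fatty acid transport proteins fell in kidney. *Slc27a1* (FATP1) was at 102, 76.5, 85.9, 93.1 and 98.4 CPM on CD and 67.3, 71.5, 70.6, 62.8 and 63.3 CPM on WD, apart in every library (log2 fold change -0.44 ± 0.082, adjusted p = 0.00328), while in gastrocnemius it stood at 128, 151, 128, 104 and 145 and 154, 163, 167, 146 and 146 CPM (log2 fold change 0.25 ± 0.085, adjusted p = 0.0822). *Slc27a2* (FATP2), which is also an acyl-CoA synthetase for very long chains, was the most abundant member of kidney. It stood at 3041, 3268, 3185, 3460.2 and 3175 CPM on CD and 2934, 2725, 2747, 2623 and 2728 CPM on WD (log2 fold change -0.23 ± 0.047, adjusted p = 0.00616), again without overlap. In gastrocnemius it was all but absent and followed the libraries with liver markers, at 0.832, 0.114, 0.0390, 0.122 and 0.0192 CPM on CD and 0.0381, 0.449, 1.59, 0.0923 and 0.0574 CPM on WD. The only values above 0.4 CPM were those of CD replicate 1 and WD replicates 2 and 3.

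Activation and the carnitine shuttle moved mainly in muscle, where 4 of 6 genes rose and none fell. Of these, *Acsl1* and *Mlycd* lost their calls without the 3 libraries with liver markers, at 0.32 and 0.23 on the log2 scale (adjusted p = 0.0585 and 0.0674). *Acsl1*, the main long-chain acyl-CoA synthetase of muscle, was at 304, 323, 286, 292 and 309 CPM on CD and 429, 390.5, 463, 342 and 359 on WD (log2 fold change 0.39 ± 0.076, adjusted p = 0.00407). The carnitine-acylcarnitine translocase *Slc25a20* had the firmest rise of the group, from 60.0, 66.4, 55.3, 50.1 and 56.6 CPM to 99.3, 86.3, 99.8, 85.8 and 99.6 CPM (log2 fold change 0.71 ± 0.070, adjusted p = 3.25e-05). *Cpt2*, which reforms acyl-CoA inside the mitochondrion, went from 53.3, 60.8, 54.4, 52.4 and 52.6 CPM to 79.8, 76.7, 85.1, 69.0 and 71.4 CPM (log2 fold change 0.48 ± 0.058, adjusted p = 0.000120). *Mlycd*, which degrades the shuttle's inhibitor malonyl-CoA, went from 76.2, 90.6, 83.3, 84.4 and 81.5 CPM to 98.7, 102, 106, 103 and 96.0 CPM (log2 fold change 0.28 ± 0.053, adjusted p = 0.00316). For all 4, each WD muscle lay above each CD muscle. In kidney these 4 had log2 fold changes of -0.29, -0.11, -0.0016 and -0.15, in the order *Acsl1*, *Slc25a20*, *Cpt2* and *Mlycd*, and none passed. *Acsl1* was at 443, 279, 345, 277 and 318 CPM on CD and 287, 291, 298, 247 and 235 CPM on WD in kidney. *Slc25a20* was at 46.8, 45.1, 47.6, 42.7 and 45.0 CPM on CD and 45.8, 42.3, 45.2, 36.7 and 40.4 CPM on WD. *Cpt2* was at 182, 167, 177, 158 and 163 CPM on CD and 182, 170.4, 182, 154 and 157 CPM on WD, and *Mlycd* at 44.4, 45.8, 49.3, 42.1 and 47.2 CPM on CD and 42.8, 37.8, 43.4, 42.0 and 39.6 CPM on WD. The groups overlapped for all 4. The difference between tissues passed for each, at 0.68 ± 0.16, adjusted p = 0.0128 for *Acsl1* and 0.82 ± 0.091, adjusted p = 1.83e-06 for *Slc25a20*. *Acsl1* lost that call too without the 3 libraries with liver markers.

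*Cpt1a*, the liver-type carnitine palmitoyltransferase that gates entry into mitochondria, was lower in WD kidney, at 658, 646, 587, 606 and 669.9 CPM on CD and 561, 549.8, 543, 548 and 525 CPM on WD, with no overlap (log2 fold change -0.21 ± 0.042, adjusted p = 0.00478). In gastrocnemius it stood at 18.0, 19.7, 19.6, 17.6 and 17.8 CPM on CD, 18.2, 15.3, 19.1, 14.6 and 13.7 on WD and 14.5 to 15.1 on WD+CHP, which lay wholly under CD. WD vs. CD did not pass there (log2 fold change -0.20 ± 0.077, adjusted p = 0.128), WD+CHP vs. CD did (log2 fold change -0.32 ± 0.078, adjusted p = 0.0169), and the response to WD gave no detectable difference between tissues (0.019 ± 0.090, adjusted p = 0.972). The muscle form *Cpt1b* was counted at only 2.01, 2.27, 1.60, 1.91 and 2.38 CPM in CD muscle and 1.83, 1.31, 2.14, 2.07 and 4.56 CPM in WD muscle. In GENCODE M21, 81.4% of its exon bases also belong to the same-strand gene *Gm44502*, which has 0 counts in both tables. In kidney it was at 0.628, 0.493, 0.758, 0.568 and 0.509 CPM on CD and 0.396, 0.610, 0.487, 0.343 and 0.594 CPM on WD. The *Cpt1b* counts are therefore not read as its level.

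Mitochondrial beta-oxidation showed the most even response, with 13 of 15 genes higher in WD muscle, none lower, and log2 fold changes from 0.19 to 0.75 over the 15. *Decr1*, which prepares unsaturated chains, was at 81.0, 93.1, 78.9, 72.9 and 77.5 CPM in CD muscle and 148, 128, 142, 114 and 148 CPM in WD muscle (log2 fold change 0.75 ± 0.073, adjusted p = 2.55e-05). The long-chain dehydrogenase *Acadl* was at 190.0, 242, 171, 157 and 181 CPM and 322, 296, 329, 268 and 293 CPM in the same groups (log2 fold change 0.68 ± 0.091, adjusted p = 0.000287). The very-long-chain dehydrogenase *Acadvl* was at 297, 330.3, 259, 259 and 253 CPM and 398, 389.9, 425, 364 and 383 CPM (log2 fold change 0.49 ± 0.074, adjusted p = 0.000751), with 42.9% of its exon bases shared with the opposite-strand gene *Dvl2*. All WD values of these 3 genes exceeded all CD values. *Hadha* and *Hadhb*, the subunits of the trifunctional protein, moved alike. *Hadha* went from 349.5, 422, 339.6, 318 and 325 CPM to 520.3, 522, 553, 447 and 473 CPM (log2 fold change 0.52 ± 0.075, adjusted p = 0.000494). *Hadhb* went from 309, 379, 290.0, 286 and 290.2 CPM to 460.1, 465, 484, 419.6 and 494 CPM (log2 fold change 0.58 ± 0.072, adjusted p = 0.000162). In CD muscle, replicate 2 held the highest value of all 5 of these genes. In kidney the same genes had log2 fold changes of 0.026 (*Decr1*), -0.026 (*Acadl*), 0.10 (*Acadvl*), -0.080 (*Hadha*) and -0.065 (*Hadhb*), none of which passed. *Decr1* was at 187, 173, 179, 171 and 158 CPM on CD and 188, 183, 182, 164 and 166 CPM on WD there. *Acadl* was at 291, 256, 297, 275 and 241 CPM on CD and 299, 266, 278, 245 and 248 CPM on WD. *Acadvl* was at 89.5, 90.4, 90.6, 89.7 and 85.3 CPM on CD and 101, 91.1, 102, 90.8 and 92.2 CPM on WD, wholly higher on WD. *Hadha* was at 258, 239, 251, 265 and 242 CPM on CD and 247, 251, 232, 224 and 234 CPM on WD, and *Hadhb* at 141, 133, 138, 139 and 130.5 CPM on CD and 137, 129, 131, 128 and 126 CPM on WD. The groups overlapped for the other 4 genes. The difference between the tissues passed for each, from 0.38 ± 0.092, adjusted p = 0.0135 for *Acadvl* to 0.73 ± 0.092, adjusted p = 1.55e-05 for *Decr1*.

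The later steps followed. *Acaa2*, the mitochondrial thiolase, was at 112, 136, 90.4, 83.3 and 91.3 CPM in CD muscle and 172, 162, 193, 154 and 171 CPM in WD muscle (log2 fold change 0.73 ± 0.11, adjusted p = 0.000519). *Hadh*, the short-chain hydroxyacyl-CoA dehydrogenase, was at 139.5, 144, 116, 119.7 and 113 and 175, 162, 195, 161 and 186 CPM (log2 fold change 0.48 ± 0.075, adjusted p = 0.000925). *Etfdh*, which hands electrons to ubiquinone, was at 134, 155, 124, 119 and 119.7 and 199, 180.0, 204, 165 and 177 CPM (log2 fold change 0.50 ± 0.072, adjusted p = 0.000469), and *Etfa* was at 153, 175, 144, 138 and 151 and 196, 191, 204, 181 and 191 CPM (log2 fold change 0.34 ± 0.057, adjusted p = 0.00152). In these 4 genes, every WD muscle again exceeded every CD muscle. In kidney *Etfdh* was at 192, 185, 184, 173 and 170.3 CPM on CD and 191, 185, 198, 177 and 178 CPM on WD (log2 fold change 0.038 ± 0.042, adjusted p = 0.621). *Etfa* was at 209, 206, 228, 207 and 194 CPM on CD and 224, 215, 227, 221 and 211 CPM on WD there (log2 fold change 0.074 ± 0.042, adjusted p = 0.294). *Acads* and *Eci1* also rose, by 0.42 ± 0.085, adjusted p = 0.00516 and 0.25 ± 0.072, adjusted p = 0.0415 on the log2 scale. *Echs1* had 0.19 ± 0.075, adjusted p = 0.132, and *Etfb*, which was counted at under 2 CPM in muscle and shares 58.2% of its exon bases with other same-strand genes, 0.74 ± 0.49, adjusted p = 0.389. *Eci1* was the least stable call, lost without any one of 7 of the 10 libraries (CD replicates 3 to 5 and every WD replicate but 4), with an adjusted p of up to 0.102. Without the 3 libraries with liver markers it stood at 0.26 on the log2 scale (adjusted p = 0.138).

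In kidney the same step of the pathway was mixed, with 2 genes higher, 2 lower and 11 not called. *Acadm* (chr3:153922357-153944632), the medium-chain dehydrogenase, went opposite ways in the 2 tissues. It was at 728, 663, 817, 630.0 and 598 CPM in CD kidney and 581, 524, 574, 492 and 509 CPM in WD kidney (log2 fold change -0.36 ± 0.084, adjusted p = 0.0138), but at 274, 315, 254, 265 and 261 CPM in CD muscle and 378, 369, 391, 331 and 359.7 CPM in WD muscle (log2 fold change 0.42 ± 0.063, adjusted p = 0.000684). The groups were apart in both tissues, and the difference passed (0.77 ± 0.11, adjusted p = 9.29e-05). *Eci2*, an enoyl-CoA isomerase, did the same, at 71.0, 72.5, 72.9, 74.0 and 74.0 CPM on CD and 60.8, 57.3, 61.6, 59.0 and 57.8 CPM on WD in kidney (log2 fold change -0.30 ± 0.036, adjusted p = 0.000157) and 44.6, 54.3, 47.8, 42.3 and 45.5 and 61.3, 58.0, 61.0, 54.7 and 59.0 CPM in muscle (log2 fold change 0.33 ± 0.059, adjusted p = 0.00265). Without the 3 libraries with liver markers its muscle value was 0.30 on the log2 scale, which did not pass (adjusted p = 0.0525). The difference for *Eci2* was 0.62 ± 0.070, adjusted p = 2.15e-06. *Acaa2* and *Hadh* were the 2 genes of this step that rose in kidney as in muscle. *Acaa2* was at 119, 109, 109, 104 and 118 CPM and 148, 136, 137, 138 and 137 CPM (log2 fold change 0.31 ± 0.052, adjusted p = 0.00165). *Hadh* was at 499.5, 489, 506, 459.9 and 449.7 CPM and 591, 545, 572, 531 and 498 CPM (log2 fold change 0.19 ± 0.048, adjusted p = 0.0218), a call that was lost without any one of 3 libraries (CD replicate 5 and WD replicates 1 and 3), with an adjusted p of up to 0.0600. For these 2 genes the difference between the tissues did not pass (0.42 ± 0.13, adjusted p = 0.0604 and 0.29 ± 0.095, adjusted p = 0.0855).

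Of the peroxisomal and omega-oxidation genes, 1 of 6 was lower in kidney and 2 of 4 tested were higher in muscle. *Ehhadh*, the bifunctional enzyme of peroxisomal beta-oxidation and a classical PPAR-alpha target, was at 1229.6, 823, 861, 746 and 707 CPM in CD kidney and 532, 528, 609, 478 and 436 CPM in WD kidney, with no overlap (log2 fold change -0.76 ± 0.17, adjusted p = 0.00879). In muscle it stood at 10.2, 10.9, 7.56, 7.51 and 7.63 and 7.80, 7.40, 8.08, 6.61 and 7.79 CPM (log2 fold change -0.22 ± 0.12, adjusted p = 0.296). *Hsd17b4*, the bifunctional enzyme for branched and very long chains, was level in kidney, at 269, 253, 256, 265 and 246 and 283, 266, 275, 258 and 250.1 CPM (log2 fold change 0.047 ± 0.038, adjusted p = 0.483), and rose in muscle, from 53.3, 56.8, 59.7, 56.3 and 55.4 CPM to 81.5, 76.5, 85.3, 71.1 and 71.8 CPM (log2 fold change 0.46 ± 0.052, adjusted p = 8.61e-05). The peroxisomal thiolase *Acaa1a* did not pass in either tissue (-0.076 in kidney and -0.0049 in muscle, log2). Its paralog *Acaa1b* was called higher in WD muscle (log2 fold change 2.01 ± 0.59, adjusted p = 0.0433), but at 0.638, 0.265, 0.234, 0.142 and 0.230 CPM on CD and 0.515, 0.993, 3.67, 0.462 and 0.459 CPM on WD its highest values sat in the libraries with liver markers. Without those 3 libraries it was not called (1.12 on the log2 scale, adjusted p = 0.0884), and 30.5% of its 50-base words occur in other genes, *Acaa1a* among them.

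The omega-hydroxylases *Cyp4a10* and *Cyp4a14*, among the strongest PPAR-alpha targets of liver and kidney, were not called in kidney. *Cyp4a10* was at 546, 278, 498, 368 and 335 CPM on CD, 458, 512, 359.6, 227 and 303 on WD and 583, 506, 309.9, 256 and 334 on WD+CHP (log2 fold change -0.12 ± 0.25, adjusted p = 0.809 in WD vs. CD). *Cyp4a14* was at 84.8, 16.5, 80.1, 38.1 and 27.3, 77.8, 106, 72.0, 19.9 and 33.1 and 169.8, 155, 49.9, 25.9 and 57.0 CPM in the same order (log2 fold change 0.32 ± 0.54, adjusted p = 0.761). Its libraries spread widely in all 3 groups. In gastrocnemius *Cyp4a10* was at 0.0967, 0, 0, 0 and 0 CPM on CD and 0, 0.225, 0.804, 0 and 0 CPM on WD, and *Cyp4a14* at 0.271, 0, 0, 0 and 0 and 0, 0.187, 0.548, 0 and 0 CPM. A count of 0 allows up to 0.0548 to 0.0611 CPM in the muscle libraries (3 counts), counting error only, and again the values above 0 on CD and WD were in the 3 libraries with liver markers.

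The thioesterases *Acot1* (cytosolic) and *Acot2* (mitochondrial), which release free fatty acid from acyl-CoA and are PPAR-alpha targets, both rose in muscle, and *Acot2* fell in kidney. *Acot2* was at 41.8, 35.4, 43.8, 37.1 and 44.3 CPM in CD kidney and 33.3, 31.2, 33.6, 25.7 and 26.0 CPM in WD kidney (log2 fold change -0.43 ± 0.10, adjusted p = 0.0115), every WD value under every CD value. In muscle it was at 16.8, 24.7, 17.4, 15.2 and 18.4 CPM on CD and 39.2, 31.5, 33.7, 23.6 and 30.7 CPM on WD (log2 fold change 0.78 ± 0.14, adjusted p = 0.00226), where WD replicate 4 overlapped CD replicate 2. *Acot1* was at 64.5, 42.3, 67.3, 46.0 and 50.5 and 44.7, 49.7, 44.2, 32.2 and 34.5 CPM in kidney (log2 fold change -0.40 ± 0.18, adjusted p = 0.187), where the groups overlapped, and at 0.987, 2.71, 1.40, 0.712 and 0.845 and 4.16, 4.14, 3.75, 3.21 and 4.40 CPM in muscle, with no overlap there (log2 fold change 1.56 ± 0.26, adjusted p = 0.00157). The differences between tissues were 1.95 ± 0.34, adjusted p = 0.000607 for *Acot1* and 1.21 ± 0.18, adjusted p = 0.000113 for *Acot2*. The genes are near copies, with 13.6% of the 50-base words of *Acot1* found in *Acot2* and 24.5% of those of *Acot2* found in *Acot1* (19.2% and 27.7% in any other gene), so reads could have been split between them.

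*Pdk4* (chr6:5483351-5496309), the kinase that shuts pyruvate dehydrogenase and so spares glucose, fell in both tissues. It was at 135, 106, 110.4, 79.4 and 79.5 CPM in CD kidney and 29.7, 27.2, 30.1, 14.96 and 17.1 CPM in WD kidney, where the highest WD value was under the lowest CD value (log2 fold change -2.10 ± 0.25, adjusted p = 0.000157). In gastrocnemius, where it was the most abundant member per length on CD, it was at 1415, 1447, 1234, 1043 and 1472 CPM on CD and 920.2, 814, 849, 695 and 635 CPM on WD, likewise apart (log2 fold change -0.76 ± 0.15, adjusted p = 0.00413). The fall was the deeper in kidney, with a difference of 1.34 ± 0.31, adjusted p = 0.00887. Its relative *Pdk2* was not called in kidney (-0.060 ± 0.082, adjusted p = 0.702, log2) or muscle (-0.19 ± 0.068, adjusted p = 0.100). *Ucp3* (chr7:100472990-100486432), the muscle form, was at 227, 185, 231, 247 and 251 CPM on CD and 154, 168, 147, 171 and 125 CPM on WD, wholly lower (log2 fold change -0.58 ± 0.11, adjusted p = 0.00445). *Ucp2*, found in many tissues, was at 10.8, 11.1, 12.2, 8.08 and 9.32 CPM on CD and 15.8, 16.7, 14.3, 12.7 and 12.0 CPM on WD (log2 fold change 0.47 ± 0.11, adjusted p = 0.0157), with only WD replicate 5 under the highest CD value. Its call was lost without the 3 libraries with liver markers (0.41 on the log2 scale, adjusted p = 0.125) and with the slow fibre score described below (0.38, adjusted p = 0.0916). *Ucp3* was at most 0.325 CPM in any kidney, at 0.105, 0.233, 0.183, 0.181 and 0.254 CPM on CD and 0.0264, 0.106, 0.108, 0.0791 and 0.207 CPM on WD. *Ucp2* was at 86.8, 67.9, 90.9, 74.3 and 73.2 and 87.1, 81.3, 92.9, 80.5 and 84.3 CPM there (log2 fold change 0.12 ± 0.10, adjusted p = 0.512).

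**Figure D3:**
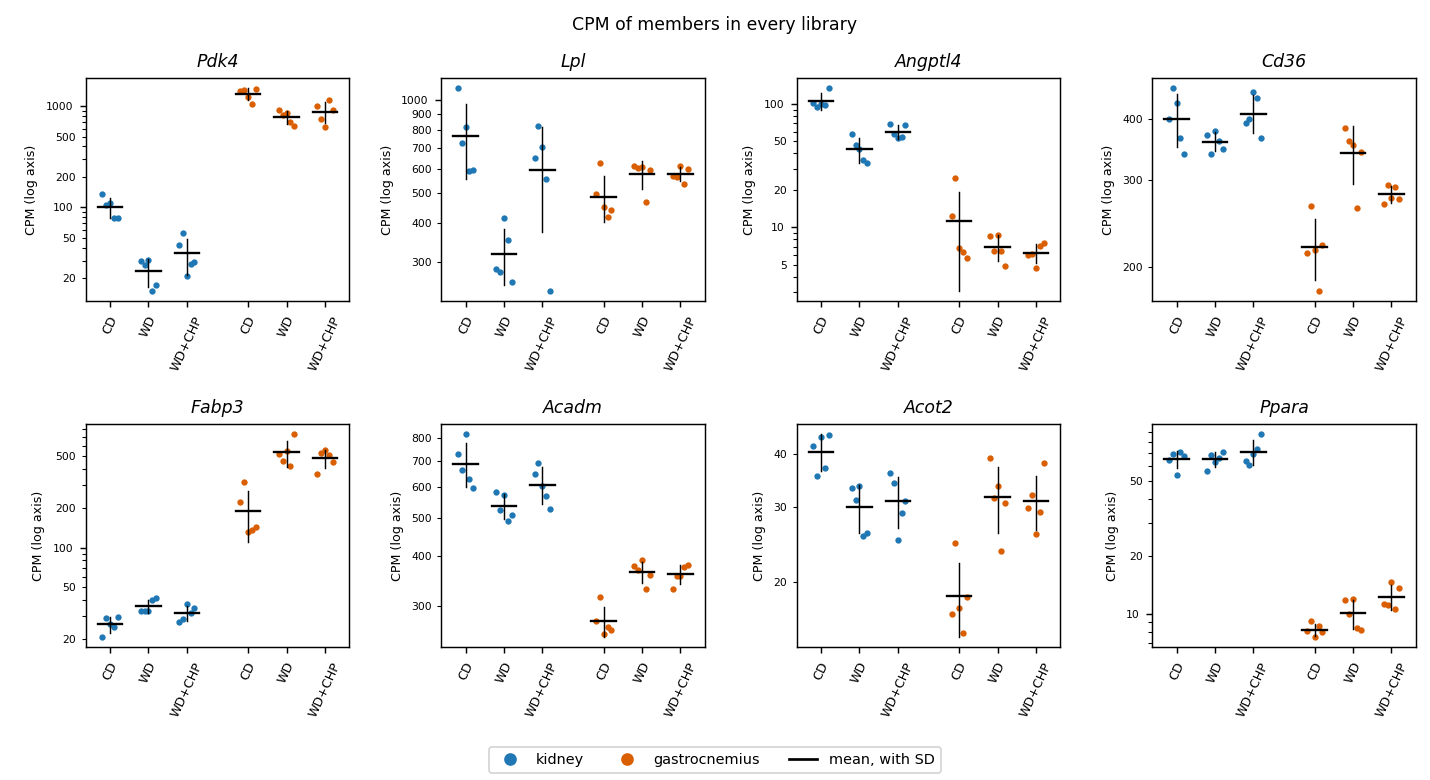
CPM on a log axis of 8 members in every library (points), with the group mean and SD (black), for kidney in blue and gastrocnemius in orange. *Pdk4* is lower on WD in both tissues, *Lpl* and *Angptl4* are lower on WD in kidney, and *Cd36*, *Fabp3*, *Acadm* and *Acot2* are higher on WD in gastrocnemius.

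Some markers of other cell types were also called in WD muscle. The 10 adipocyte markers summed to 437 to 560 CPM in CD muscle, 493 to 671 CPM in WD muscle and 381 to 643 CPM in WD+CHP muscle, and none was at 0 in a whole group. In WD vs. CD, *Lep*, *Cidec*, *Adipoq* and *Plin1* rose, by 3.96, 1.38, 1.00 and 0.93 on the log2 scale, *Cfd* fell by 1.59 ± 0.23, and the other 5 did not pass. With the adipocyte score (the mean of the centred log2 values of these markers) as a covariate, 1 of 38 members, *Decr1*, was still called in WD vs. CD (0.70 on the log2 scale, adjusted p = 0.0434). The same step left 18 of 15419 genes called in place of 1330, and the median SE of the members rose from 0.081 to 0.13 while their median log2 fold change went from 0.42 to 0.34. The scores of the groups did not overlap (-0.55 to -0.034 on CD and 0.31 to 0.68 on WD), so this score and the diet cannot be told apart. In WD+CHP muscle, where the score ran from -0.65 to 0.11, 25 of 38 members were called against CD both with and without the score. *Cd36*, *Lpl* and *Angptl4* are also expressed by adipocytes. Of 5 brown adipocyte markers, which summed to 24.6 to 44.7 CPM in CD muscle, 23.1 to 124 CPM in WD muscle and 30.9 to 48.2 CPM in WD+CHP muscle, 3 were tested, and 1 was called higher in WD vs. CD, *Cidea* (log2 fold change 2.12 ± 0.31, adjusted p = 0.000572). Their defining member *Ucp1* averaged 0.00387 CPM in CD muscle and 0.0228 CPM in WD muscle.

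The 8 slow fibre markers summed to 577 to 1596 CPM in CD muscle, 783 to 2837 CPM in WD muscle and 942 to 1584 CPM in WD+CHP muscle, with none at 0 in a whole group. In WD vs. CD, 0 of 8 were called by edgeR's test and 4 had an unadjusted p under 0.05, all 8 estimates were above 0 and their median was 0.59. Of the 12 fast fibre markers, 10 estimates were below 0 and 7 had an unadjusted p under 0.05, with 1, *Myl1*, called lower (log2 fold change -0.30 ± 0.089, adjusted p = 0.0478) and a median of -0.15. All 8 macrophage estimates were above 0 (median 0.31), with 0 called and 3 at an unadjusted p under 0.05. With a slow fibre score as a covariate, 21 members were called higher and 2 lower, and *Eci1*, *Acaa1b* and *Ucp2* were not called, while calls over all genes went from 8.63% to 4.13%. With the 3 libraries that held liver markers left out, 18 were higher and 2 lower, with a median of 0.40, and *Acsl1*, *Mlycd*, *Eci1*, *Eci2*, *Acaa1b* and *Ucp2* lost their calls (adjusted p from 0.0525 to 0.138). Over all genes 3.08% were then called, and *Myl1* was not among them. The difference between tissues then passed for 20 members in place of 23, against 2.62% of all genes in place of 4.13%. Those lost were *Acsl1*, *Etfa* and *Acaa1b*, at 0.60, 0.24 and 1.32 on the log2 scale (adjusted p = 0.0711, 0.126 and 0.0812). The median difference over the members went from 0.58 to 0.51 and their median SE from 0.123 to 0.139. These 2 settings were chosen after seeing the data. The part of adipocytes, macrophages and fibre type in the muscle result was otherwise not tested.

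WD+CHP vs. WD asked whether CHP changed these genes under the diet. No member passed in either tissue. In kidney, 0 of 40 members were called, against 0.105% of all genes, 10 had an unadjusted p under 0.05, where 11.4% of all genes did, and the median was 0.057. DESeq2 called 2, *Lpl* and *Eci2*, and 1.13% of all genes, and limma-voom 0 and 0.146%. In gastrocnemius, 0 of 38 were called, against 0.409% of all genes, 9 had an unadjusted p under 0.05, against 12.5% of all genes, and the median was -0.022. DESeq2 called 1 there, *Acaa1b*, and 1.61% of all genes, and limma-voom 0 and 0.435%. No member had its WD+CHP libraries wholly above or below its WD libraries in either tissue, where 2.36% of all genes in kidney and 2.83% in gastrocnemius did. An adjusted p that misses the threshold does not show that CHP left these genes as they were.

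The members described next for that comparison were chosen after their values were seen. *Lpl* in kidney was at 286, 279, 416, 353 and 259 CPM on WD and 651, 826, 707, 556 and 242 CPM on WD+CHP (log2 fold change 0.91 ± 0.25, adjusted p = 0.162, 95% interval 0.42 to 1.39). Of the WD+CHP kidneys, 4 lay above every WD kidney and replicate 5 lay below them all. Without that library *Lpl* was called (1.11 on the log2 scale, adjusted p = 0.0159). *Angptl4* in kidney was at 68.5, 57.1, 52.7, 54.1 and 67.3 CPM on WD+CHP (log2 fold change 0.47 ± 0.13, adjusted p = 0.168 vs. WD), with 3 of 5 libraries under the highest WD value, and *Pdk4* was at 43.0, 55.7, 21.2, 27.5 and 28.9 CPM (log2 fold change 0.57 ± 0.25, adjusted p = 0.404). *Ehhadh* was at 865, 867, 647, 566 and 481 CPM (log2 fold change 0.41 ± 0.17, adjusted p = 0.349). For these 4 genes the WD+CHP mean lay between the WD and CD means. Of the kidney markers in this comparison, 6 of 9 hepatocyte estimates were below 0 (median -1.62, 5 at an unadjusted p under 0.05). So were 9 of 10 endothelial estimates (3 at an unadjusted p under 0.05) and 7 of 8 macrophage estimates (0). Of 15 proximal tubule estimates, 10 were above 0 and 4 had an unadjusted p under 0.05. In these lists edgeR's test called 0, and the part of these cell types was not tested. For muscle *Cd36*, WD+CHP libraries were at 268, 293, 277, 291 and 275 CPM (log2 fold change -0.28 ± 0.097, adjusted p = 0.239, interval -0.47 to -0.090), and for muscle *Pdk4* at 994, 748, 617, 1137 and 916 CPM (log2 fold change 0.17 ± 0.15, adjusted p = 0.674). *Ucp3* was at 212, 173, 183, 223 and 145 CPM (log2 fold change 0.29 ± 0.11, adjusted p = 0.299) and *Ucp2* at 9.86, 11.7, 12.8, 12.9 and 10.7 CPM (log2 fold change -0.30 ± 0.11, adjusted p = 0.279).

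For the mitochondrial genes of muscle, the WD+CHP libraries overlapped the WD libraries and, for the 3 given here, exceeded every CD library. *Slc25a20* was at 82.8, 94.3, 90.8, 91.7 and 89.4 CPM, *Decr1* at 121, 125, 123, 129 and 123 CPM and *Acadl* at 270.4, 290.4, 291, 307 and 290.3 CPM on WD+CHP. Of the uptake genes, *Fabp3* was at 362, 528, 552, 506 and 452 CPM (log2 fold change -0.15 ± 0.22, adjusted p = 0.828). The 95% interval of WD+CHP vs. WD ran from -0.24 to 0.12 for *Acadl*, -0.19 to 0.10 for *Hadha*, -0.20 to 0.068 for *Slc25a20* and -0.27 to 0.0095 for *Decr1* (log2), where WD vs. CD had given 0.68, 0.52, 0.71 and 0.75. Of the 10 adipocyte markers, 8 had estimates below 0 in the same comparison and 4 were called. *Adipoq*, *Plin1*, *Cidec* and *Lep* were called lower in WD+CHP muscle than in WD muscle, with log2 fold changes of -1.15, -0.98, -1.31 and -1.89. All 6 hepatocyte markers tested were below 0 at an unadjusted p under 0.05 (median -3.71). The estimates of all 8 slow fibre markers (median -0.28, 0 at an unadjusted p under 0.05) and all 8 macrophage markers (median -0.26, 1 at an unadjusted p under 0.05) were also below 0, with 0 called by edgeR's test in these 3 lists. Without the 3 libraries with liver markers, edgeR's test called 0 of 15625 genes in this comparison (1492 at an unadjusted p under 0.05), and 9 of 10 adipocyte and 8 of 8 macrophage estimates were below 0, but 3 of 8 slow fibre ones. The part of these cell types in WD+CHP vs. WD was not tested.

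**Figure D4:**
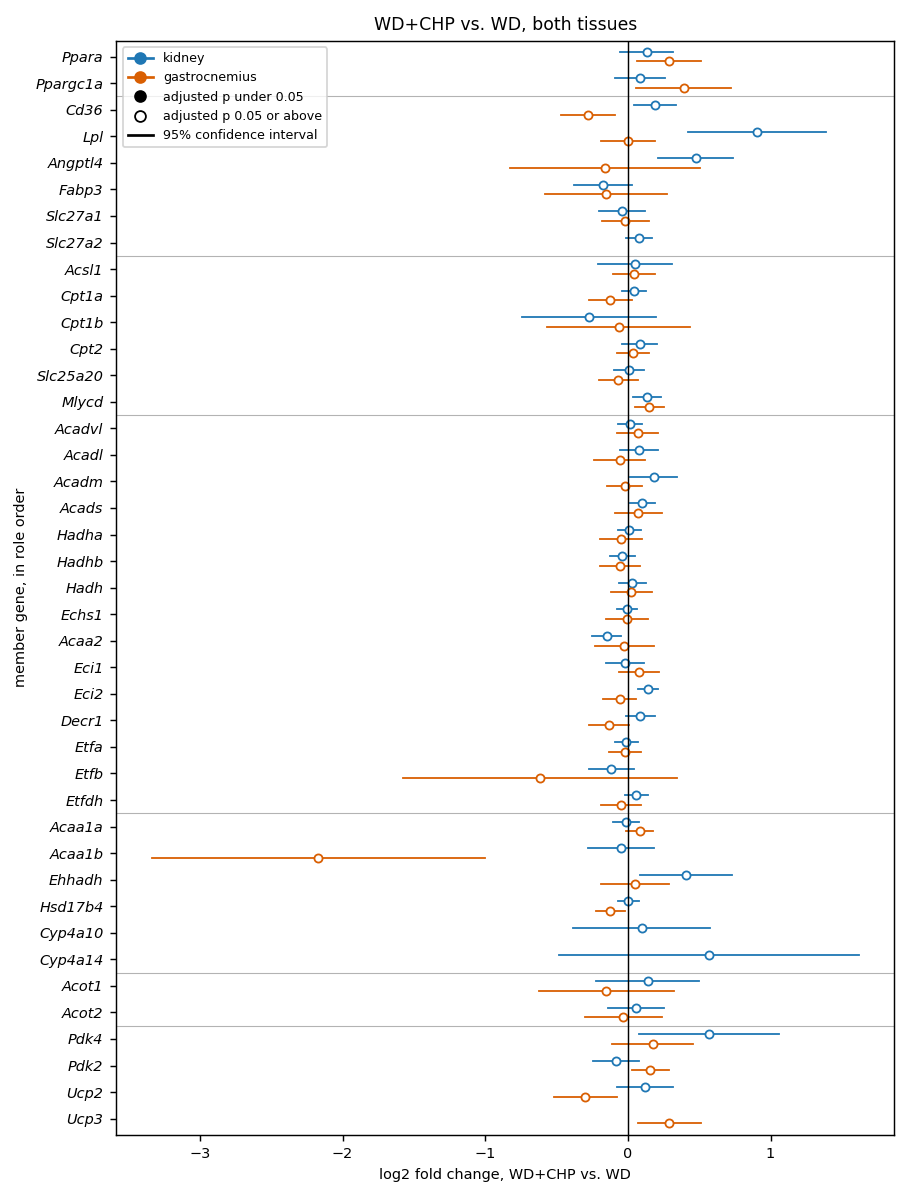
Log2 fold change of each member in WD+CHP vs. WD (horizontal axis) with its 95% confidence interval, kidney in blue and gastrocnemius in orange. No point is filled, since 0 of 40 members in kidney and 0 of 38 in gastrocnemius had an adjusted p under 0.05.

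Against CD, which serves as the control of both comparisons, WD+CHP gave 8 calls of 40 in kidney (1 higher, 7 lower, against 12.1% of all genes, 6.25% higher and 5.84% lower; 3 higher and 7 lower with DESeq2's size factors) and 25 of 38 in gastrocnemius (23 higher, 2 lower, against 9.4% of all genes, 4.85% higher and 4.55% lower). Side by side with WD vs. CD, the log2 values in kidney were -2.10 and -1.53 for *Pdk4*, -1.30 and -0.82 for *Angptl4*, -0.44 and -0.49 for *Slc27a1*, and -0.76 and -0.35 for *Ehhadh*. For *Lpl* they were -1.27 and -0.36. *Lpl* and *Ehhadh* were not called in WD+CHP vs. CD (adjusted p = 0.376 and 0.181). In gastrocnemius the pairs were 1.50 and 1.35 for *Fabp3*, 0.64 and 0.36 for *Cd36*, 0.71 and 0.64 for *Slc25a20*, 1.56 and 1.40 for *Acot1*, and -0.58 and -0.29 for *Ucp3*. The *Cd36* call in WD+CHP vs. CD (adjusted p = 0.0286) was lost without any one of 8 of the 10 libraries, with an adjusted p of up to 0.0649. Without the 3 libraries with liver markers, *Cd36* (0.35 on the log2 scale, adjusted p = 0.0789) and *Pdk4* (-0.56, adjusted p = 0.0624) were not called in WD+CHP vs. CD. *Ucp2* and *Ucp3* were called in WD vs. CD only (adjusted p = 0.373 and 0.121 in WD+CHP vs. CD), which does not show that the groups differ. In kidney, 2 of 10 endothelial markers were called lower in WD+CHP vs. CD, and 3 of 15 proximal tubule markers higher and 1 lower. In gastrocnemius, all 8 slow fibre estimates were above 0 (median 0.37) and 10 of 12 fast fibre ones below 0 (median -0.15). All 6 hepatocyte estimates there were below 0 (median -3.28), and edgeR's test called 0 in these muscle lists. The part of these cell types was not tested.

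The contrast between the tissues was tested in 1 model over all 30 libraries. Its filter kept all 41 members, with *Slc27a2*, *Cyp4a10* and *Cyp4a14* passing through kidney alone and *Ucp3* through gastrocnemius alone. None of these was called in the difference in WD vs. CD. In WD vs. CD the response differed for 23 of 41 members, each higher in gastrocnemius than in kidney, against 4.13% of all genes called in either direction (2.26% higher, 1.87% lower). They comprise 4 of 6 uptake genes (*Lpl*, *Cd36*, *Fabp3* and *Slc27a1*), 4 of 6 of activation and the carnitine shuttle, 10 of 15 of mitochondrial beta-oxidation, 2 of 6 peroxisomal genes, both thioesterases and *Pdk4*. *Acaa1b* lost this call without gastrocnemius WD replicate 3, a library with liver markers (adjusted p = 0.0928). Without all libraries with liver markers 20 members passed, against 2.62% of all genes, and *Acsl1* and *Etfa* also lost the call. The median difference over the 41 members was 0.58, beside -0.0013 over all genes. In WD+CHP vs. WD, 0 of 41 differed, against 0.347% of all genes, and 9 had an unadjusted p under 0.05, where 11.8% of all genes did. DESeq2 called 2 (*Cd36* and *Acaa1b*) and 1.53% of all genes, and limma-voom 0 and 0.235%. For *Cd36* the estimate was -0.46 ± 0.13, adjusted p = 0.114, from a value of 0.19 in kidney and -0.28 in muscle.

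The tissues also differed in the levels of the members. On CD, 38 of 41 members were called between gastrocnemius and kidney, 18 higher and 20 lower in muscle, where 88.1% of all genes were called (41.5% higher, 46.6% lower). *Slc27a2*, *Cyp4a10* and *Cyp4a14*, too low to test in muscle, passed this model's filter through kidney alone, and *Ucp3* through muscle alone. Their calls here were fixed by that filter and add nothing to it. Scaling by total counts in place of TMM gave 12 higher and 27 lower, and moved the median of all genes from -0.13 to -0.97, so directions between tissues are relative to the scaling. Per length, the highest members in kidney were *Slc27a2* (2143 ± 120.2 TPM, counts per base of exon scaled to 1 total per library; SD, n = 5), *Ehhadh* (729 ± 169) and *Cyp4a10* (477 ± 129). In gastrocnemius they were *Pdk4* (1100.5 ± 166 TPM), *Fabp3* (670.3 ± 286) and *Pdk2* (499.5 ± 48.9). The peroxisomal and omega-oxidation genes were on the kidney side, with 5 of 6 lower in muscle under both scalings and *Acaa1a* not called with TMM (-0.085 ± 0.051, adjusted p = 0.119, log2). Of these 5, *Cyp4a10* and *Cyp4a14* entered the model through kidney alone, so their direction was set by the filter. *Cpt1a* was at 207 ± 13.9 TPM in kidney and 7.08 ± 0.526 TPM in muscle, and *Ppara* at 42.2 ± 5.01 and 6.28 ± 0.454 TPM. *Ucp3* was at 212 ± 23.8 TPM in muscle and 0.152 ± 0.0474 TPM in kidney. *Cd36* was at 277 ± 29.7 TPM in kidney and 178 ± 28.3 TPM in muscle and *Lpl* at 182 ± 47.5 and 136 ± 24.5 TPM, and neither passed in the model's scaling (-0.069 ± 0.090, adjusted p = 0.473 and 0.15 ± 0.20, adjusted p = 0.486, log2).

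**Figure D5:**
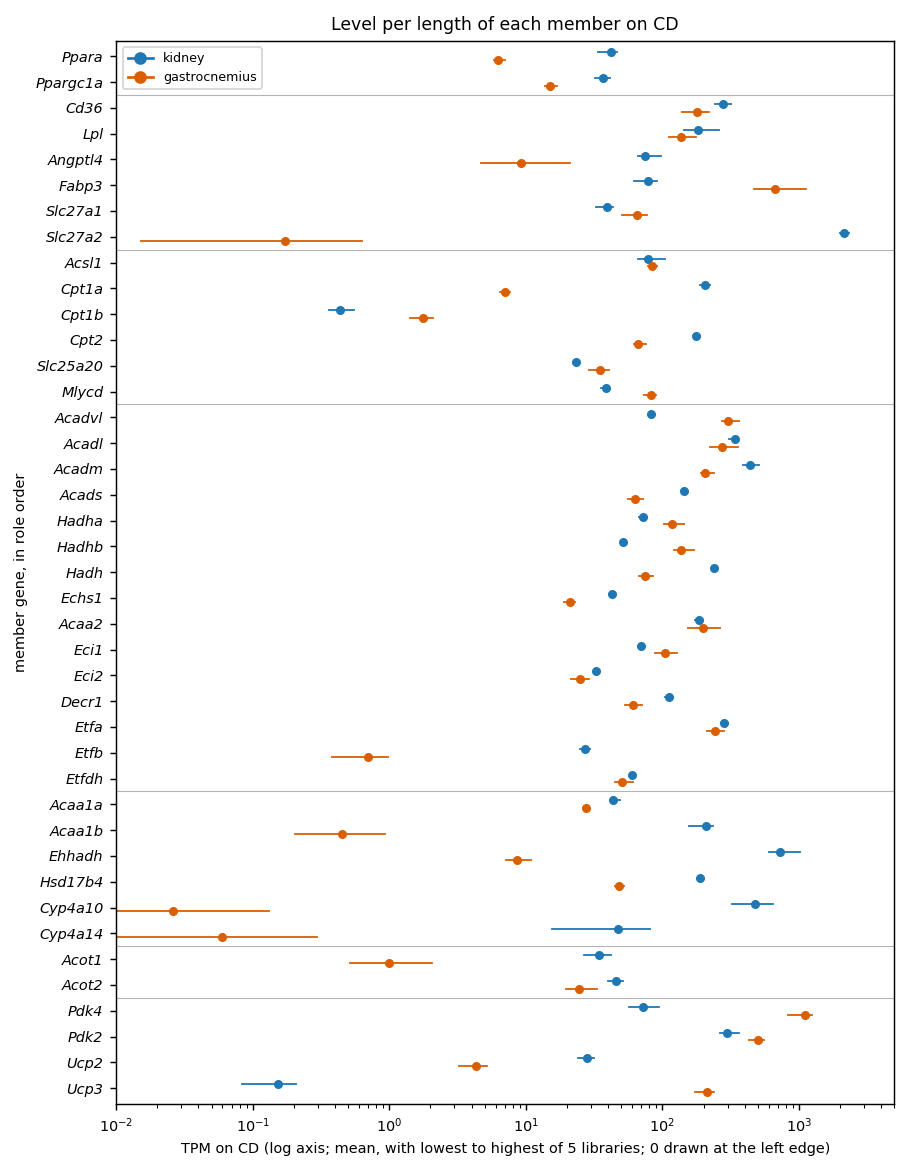
Level per length (TPM, log axis) of each member on CD, as the mean (point) and the range from lowest to highest of 5 libraries (line), kidney in blue and gastrocnemius in orange. *Slc27a2*, *Cyp4a10*, *Ehhadh* and *Acaa1b* lie far to the kidney side, and *Ucp3*, *Pdk4* and *Fabp3* to the muscle side.

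The wider pathway was followed with 119 further genes (other regulators, lipolysis, ketone bodies, peroxisomal import and PPAR targets). In WD vs. CD kidney, 22 of 114 tested were called, 7 higher and 15 lower, beside 13 of 40 members and 9.65% of all genes, and their median was -0.020. The strongest were *Txnip*, a glucose-responsive inhibitor of thioredoxin (459 CPM on CD and 243 on WD; log2 fold change -0.92 ± 0.095, adjusted p = 3.94e-05), the peroxisomal oxidase *Acox2* (120.3 and 86.7 CPM; log2 fold change -0.47 ± 0.069, adjusted p = 0.000643) and the medium-chain synthetase *Acsm1* (165 and 132 CPM; log2 fold change -0.33 ± 0.051, adjusted p = 0.00101). In gastrocnemius, 29 of 93 were called, 22 higher and 7 lower, against 8.63% of all genes, with a median of 0.11. There the strongest were the lipid droplet protein *Plin5*, which tethers droplets to mitochondria (12.0 CPM on CD and 34.9 on WD; log2 fold change 1.53 ± 0.14, adjusted p = 1.23e-05), *Txnip* (997 and 611 CPM; log2 fold change -0.71 ± 0.069, adjusted p = 2.55e-05) and *Acsm3* (1.20 and 0.329 CPM; log2 fold change -1.86 ± 0.19, adjusted p = 4.39e-05). Like *Pdk4*, *Txnip* fell in both tissues. By group in muscle, 7 of 15 peroxisomal and omega-oxidation genes rose, 5 of 15 mitochondrial ones, 5 of 17 of uptake and lipolysis, 2 of 8 of ketone bodies, 2 of 12 of pyruvate dehydrogenase and other targets, 1 of 13 regulators and 0 of 13 of activation, beside 4.67% of all genes. Without the 3 libraries with liver markers, 10 of the 93 were higher and 4 lower, with 2 peroxisomal and 3 mitochondrial genes among the higher, beside 1.84% of all genes higher. In WD+CHP vs. WD, 0 of 114 and 0 of 93 were called by edgeR's test, with 28 and 15 at an unadjusted p under 0.05, where 11.4% and 12.5% of all genes were.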

How the data were processed

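Poly(A)-selected RNA from kidney and gastrocnemius was sequenced on a BGISEQ-500, and the authors deposited raw read counts per gene for each tissue. The submitters' processing notes name SOAPnuke, FastQC, STAR 2.7.3a and GRCm38/mm10. The counting tool, annotation and strand setting are not given in the sources used here. Extraction kits and starting tissue are described differently in the labels and in the study's methods. All count columns matched a labelled library (unmapped columns: 0). Replicates of the same number were not treated as paired, and no 2 libraries of 60 pairs compared within groups agreed within sampling noise (chi-square per gene 9.06 to 75.7).

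Counts were filtered with filterByExpr (minimum count 10), leaving 17120 genes in kidney and 15419 in gastrocnemius, scaled by TMM and tested with edgeR 4.0.16 (quasi-likelihood test, R 4.3.3), the 3 groups of a tissue in 1 model and all 30 libraries in another for contrasts between tissues. P-values were adjusted by Benjamini-Hochberg over all genes, with a threshold of 0.05. CPM are on TMM-scaled library sizes, one tissue at a time, and log2 CPM for scores used a prior count of 2. TPM used exon lengths of GENCODE M21, in which 54809 of 54838 kidney and 55227 of 55487 gastrocnemius identifiers were found. DESeq2 1.42.0, limma-voom (limma 3.58.1), other scalings and filters, a replicate block, each library left out in turn, fits of only the 2 groups compared and an adipocyte score were alternatives. A slow fibre score and leaving out libraries with liver markers were chosen after seeing the data. The members and lists were chosen with earlier results of these data known. The CD and WD libraries of both tissues are given for members under the threshold in a comparison (the 25 with the smallest adjusted p) and for 15 members set by name, the WD+CHP libraries only where a WD+CHP comparison of the member is described, and for the other pathway genes the 3 with the smallest adjusted p per tissue and comparison are named. Beyond that rule, values are also given for Ehhadh and Acaa1b, chosen after they were seen.

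Depth lay between 37189192 and 38211422 counts in kidney and between 50319024 and 53282969 counts in gastrocnemius, with a biological coefficient of variation of 9.62% and 11.6%. On simulated data, the kidney comparison of WD vs. CD (16957 genes) recovered 92% of 100 genes changed by 0.5 on the log2 scale and the gastrocnemius comparison (15311 genes) 96%. The difference between tissues (17813 genes) recovered 46% at 0.5 and 99% at 1. Every simulated gene had the same spread between libraries, and genes with low counts were not among those changed. These shares therefore do not hold for genes of wider spread or lower counts in the real libraries. Intervals and floors cover counting error or library spread only. Figures used matplotlib 3.10.9 (Python 3.11.15).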

Additional observations from a re-analysis of the deposited data

Results flagged for a closer look

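In 246 groups of 5 libraries (every member and group, in each tissue where it reached 10 counts in some library), 21 held a library whose gap to the nearest of the others exceeded 0.71 of the group's range (Dixon's critical value), where chance flags about 1 in 20 groups. In kidney, CD replicate 5 had the highest *Angptl4* (134.9 CPM, the others 94.3 to 102) and the lowest *Acadvl* (85.3 CPM, the others 89.5 to 90.6), and WD replicate 1 had the highest *Acaa2* (148 CPM, the others 136 to 138). CD replicate 2 had the lowest *Acaa1b* (125 CPM, the others 167 to 181).

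In gastrocnemius, the gene values of liver-type libraries stood apart. *Slc27a2* was at 0.832 CPM in CD replicate 1 (the others 0.0192 to 0.122) and 1.59 CPM in WD replicate 3 (the others 0.0381 to 0.449). *Acaa1b* was at 0.638 CPM in CD replicate 1 (the others 0.142 to 0.265) and 3.67 CPM in WD replicate 3 (the others 0.459 to 0.993). *Cyp4a10* was at 0.0967 CPM in CD replicate 1 and 0.804 CPM in WD replicate 3, and *Cyp4a14* at 0.271 CPM in CD replicate 1. *Cyp4a10* was also the only value above 0 of its group in WD+CHP replicate 4, at 0.0196 CPM. CD replicate 2 was highest for *Cpt2* (60.8 CPM, the others 52.4 to 54.4) and *Hadhb* (379 CPM, the others 286 to 309). WD replicate 4 was lowest for *Lpl* (469 CPM, the others 596 to 612). WD+CHP replicate 1 was lowest for *Acadvl* (361 CPM, the others 412 to 433), *Acaa2* (152 CPM, the others 170 to 173), *Eci1* (85.7 CPM, the others 96.8 to 101) and *Cpt1b* (1.48 CPM, the others 2.36 to 2.52), and WD replicate 5 was highest for *Cpt1b* (4.56 CPM, the others 1.31 to 2.14) and *Etfb* (1.42 CPM, the others 0.183 to 0.286).

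The response to WD differed between the tissues for 23 members by the test of the difference (log2, gastrocnemius minus kidney). Among uptake genes the differences were 1.51 for *Lpl*, 1.03 for *Fabp3*, 0.79 for *Cd36* and 0.69 for *Slc27a1*. In activation and the carnitine shuttle they were 0.82 for *Slc25a20*, 0.68 for *Acsl1*, 0.48 for *Cpt2* and 0.44 for *Mlycd*. In mitochondrial beta-oxidation they were 0.77 for *Acadm*, 0.73 for *Decr1*, 0.70 for *Acadl*, 0.64 for *Hadhb*, 0.62 for *Eci2*, 0.60 for *Hadha*, 0.46 for *Etfdh*, 0.39 for *Acads*, 0.38 for *Acadvl* and 0.26 for *Etfa*. The others were *Acaa1b* at 2.22, *Hsd17b4* at 0.41, *Acot1* at 1.95, *Acot2* at 1.21 and *Pdk4* at 1.34.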

How the results depend on the processing

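With each library left out in turn, the members called in WD vs. CD numbered 12 to 14 in kidney and 24 to 27 in gastrocnemius, and 12 of 13 and 24 of 26 called members kept their call in every such fit. The difference between tissues in WD vs. CD gave 21 to 26 calls, and 20 of 23 members were called each time. *Acads* lost that call without kidney CD replicate 3 or gastrocnemius CD replicate 5, and *Etfa* without any one of 8 of the 20 libraries. In gastrocnemius WD vs. CD, *Acaa1b* lost its call without any one of 6 libraries, WD replicate 3 among them, and its log2 fold change ranged from 1.00 to 2.47. In WD+CHP vs. CD, *Slc27a2*, *Cpt1a* and *Acot2* in kidney and *Cd36* and *Pdk4* in gastrocnemius lost theirs in at least 1 such fit.

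With the adipocyte score, 1 member was called in WD vs. CD in gastrocnemius. In WD+CHP vs. WD, DESeq2 called 2 in kidney, 1 in gastrocnemius and 2 in the difference between tissues, and leaving out 1 library gave 0 to 1 in kidney and 0 to 3 in the difference. The 1 was *Lpl*, without WD+CHP replicate 5, and the 3 were *Cd36*, *Slc27a2* and *Acaa1b*, without gastrocnemius WD replicate 4. *Slc27a2* passed the filter of that model through kidney alone and had 0 to 3 counts in the WD+CHP muscles. In WD muscle, *Slc27a2* and *Acaa1b* were highest in libraries with liver markers, so these 2 calls are not read as responses to CHP. The 1 member called higher in WD+CHP vs. CD in kidney became 3 with DESeq2's size factors or at least 10 counts in every library, and 4 with DESeq2. The cause was not tested.

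Some values near 0 changed sign. *Ppara* in WD vs. CD kidney ranged from -0.062 to 0.044 with a library left out. *Cd36* in WD+CHP vs. CD kidney was -0.016 with total count scaling and -0.0075 to 0.10 with a library left out. *Lpl* in WD+CHP vs. WD gastrocnemius was -0.042 with total count scaling, -0.0014 with at least 10 counts in every library, and -0.066 to 0.025 with a library left out. *Angptl4* there was 0.45 with the adipocyte score. Between tissues on CD, total count scaling turned *Acsl1* (-0.19), *Acadl* (-0.58), *Acaa2* (-0.17), *Eci2* (-0.69), *Etfa* (-0.51) and *Etfdh* (-0.52). In these 6 the scaling shifts every gene.

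With a replicate block, 13 members in kidney and 24 in gastrocnemius were called in WD vs. CD, 23 in the difference between tissues, 12 in WD+CHP vs. CD in kidney (5 higher, 7 lower) and 25 in gastrocnemius. Same-numbered libraries did not deviate together (correlations from -0.126 to 0.146, and in 6 of 30 comparisons of a library with another group the best match had its own number), so the numbers were not read as pairs. Depth limits *Slc27a2*, *Cyp4a10* and *Cyp4a14* in gastrocnemius and *Ucp3* in kidney, which were too low to test within that tissue. The model of both tissues kept them through the other tissue alone.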
